A study of Mus musculus with 6 samples.

Results

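The genes described here are 10 immediate early transcription factor genes, chosen by name from the 20295 genes of the count table: Fos, Fosb, Fosl1 and Fosl2 of the Fos family, Jun, Junb and Jund of the Jun family, and Egr1, Egr2 and Egr3 of the Egr family. All 10 were in the table, and 8 passed the filter on low counts. Fosb and Egr3 did not. Total RNA depleted of ribosomal RNA was sequenced from primary mouse adipocytes, grown from the stromal-vascular fraction of brown (BAT), inguinal white (iWAT) and epididymal white (eWAT) adipose tissue, with 2 libraries per depot. The labels number these libraries 1 and 2 (the table's A and B) and do not say what a number stands for.

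All 3 groups came from male NMRI mice of 4 to 5 weeks, with no genetic change named. BAT joined tissue from interscapular, cervical and axillary sites. The same medium served all cultures and held rosiglitazone, a Pparg agonist, at 1 µM, insulin at 30 nM and newborn calf serum at 10%. Harvest was 8 days after plating per the protocol, although the library descriptions carry the tag D7. Cultures were kept only at a differentiation of over 50%. Whether the paired libraries stem from different animals or dishes is not stated, so p-values measure the spread between these libraries, which may be technical. In fits that hold the replicate number, that spread is how far the difference between the numbers varied from depot to depot. If a number marks a single preparation or day, the 3 depots are not replicates of it. Libraries held 4807449 and 2889038 counts in BAT replicates 1 and 2, 4244019 and 3857918 in iWAT, and 4094340 and 3363453 in eWAT. The adipocyte gene Adipoq had from 5678 to 8425 counts in each library. Ucp1, the uncoupling protein gene of brown fat, had 23300 and 24306 counts in BAT, 4633 and 3958 in iWAT and 256 and 221 in eWAT.

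Immediate early genes are transcribed within minutes of a stimulus such as serum, growth factors, stress or mechanical disturbance, without new protein synthesis, and their transcripts decay quickly. Fos and Jun proteins carry a basic leucine zipper and pair with each other to form the AP-1 transcription factor, while Jun proteins can also pair among themselves. Egr proteins are zinc finger factors that bind GC-rich sites. Several of these genes are driven by serum response factor at CArG boxes and by CREB or ATF factors at cyclic AMP response elements. In cultured preadipocytes Fos and Egr2 are induced early after the hormonal cocktail that starts differentiation.

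Promoter windows of 300 bases around an annotated start were found in RefSeq (GRCm38.p6, another build than the mm9 of the counts) for 7 of the 10 genes: Fos, Fosb, Fosl2, Jun, Junb, Jund and Egr2. Those of Fos, Junb and Egr2 are shown as tested members whose windows hold the motifs marked. The windows of Jun and Fosl2, whose levels also followed those of Fos and Junb over the libraries, held no TGACG core, nor did that of Jund. Capitals mark the cyclic AMP response element core TGACG, searched on both strands, and in Egr2 also the CArG box to which serum response factor binds. Sequences run 5′ to 3′ along the gene.
Fos, chr12:85473640-85473939, plus strand: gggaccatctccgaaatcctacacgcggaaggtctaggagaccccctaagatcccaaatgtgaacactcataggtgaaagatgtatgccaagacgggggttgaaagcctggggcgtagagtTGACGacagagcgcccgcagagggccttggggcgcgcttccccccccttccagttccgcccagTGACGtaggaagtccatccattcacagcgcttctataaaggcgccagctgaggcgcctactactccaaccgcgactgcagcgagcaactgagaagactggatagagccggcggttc
Junb, chr8:84978699-84978998, minus strand: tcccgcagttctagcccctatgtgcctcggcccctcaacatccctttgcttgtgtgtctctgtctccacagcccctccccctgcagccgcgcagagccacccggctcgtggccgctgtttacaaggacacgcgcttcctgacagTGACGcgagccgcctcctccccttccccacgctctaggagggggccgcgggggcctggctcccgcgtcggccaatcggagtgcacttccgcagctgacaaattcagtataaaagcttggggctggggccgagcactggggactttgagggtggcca
Egr2, chr10:67537619-67537918, plus strand: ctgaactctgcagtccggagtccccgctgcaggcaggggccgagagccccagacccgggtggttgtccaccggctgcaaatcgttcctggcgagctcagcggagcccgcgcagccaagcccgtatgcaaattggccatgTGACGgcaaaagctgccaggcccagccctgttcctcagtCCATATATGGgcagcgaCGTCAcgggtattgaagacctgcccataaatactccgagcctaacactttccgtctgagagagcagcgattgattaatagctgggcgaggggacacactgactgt
The Fos window held the TGACG core at -129 to -125 and at -66 to -62 from the start, and the Junb window held it at -106 to -102. The Egr2 window held it at -111 to -107 and, on the other strand, at -55 to -51, with the CArG box at -72 to -63. Among 32851 windows of the same length over all genes, 20.8% held a TGACG core and 1.63% a CArG box, so the first match is common and the second is rare. The AP-1 site TGACTCA, present in 5.2% of all windows, was in 0 of the 11 windows of these 7 genes, 5 of which belong to Egr2 and partly overlap. TGACATCA, the variant AP-1 site known from the Jun promoter, was in the Jun window at -45 to -38 and in 3.62% of all windows. The Egr site GCGGGGGCG was in 2 of the 11 windows, those of Fosl2 and Fosb, and in 2.91% of all windows. The full cyclic AMP response element TGACGTCA was in 0 of the 11 and in 1.79% of all windows. A match describes these letters and does not show binding.

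In mm9, Fos (NM_010234) lies on chromosome 12 from 86814851 to 86818219, Fosb (NM_008036) on chromosome 7 from 19888045 to 19895394, Fosl1 (NM_010235) on chromosome 19 from 5447698 to 5455938, and Fosl2 (NM_008037) on chromosome 5 from 32438845 to 32460212. Jun (NM_010591) lies on chromosome 4 from 94715727 to 94718913. Junb (NM_008416, 87500808 to 87502647) and Jund (NM_001286944, 73221638 to 73224515) are both on chromosome 8. Egr1 (NM_007913) lies on chromosome 18 from 35020861 to 35024610, Egr2 (NM_010118) on chromosome 10 from 67000617 to 67004936, and Egr3 (NM_018781) on chromosome 14 from 70477252 to 70482420. The counted length of each of the 3 Jun genes equals its genomic span, as in genes without introns.

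**Figure D1:**
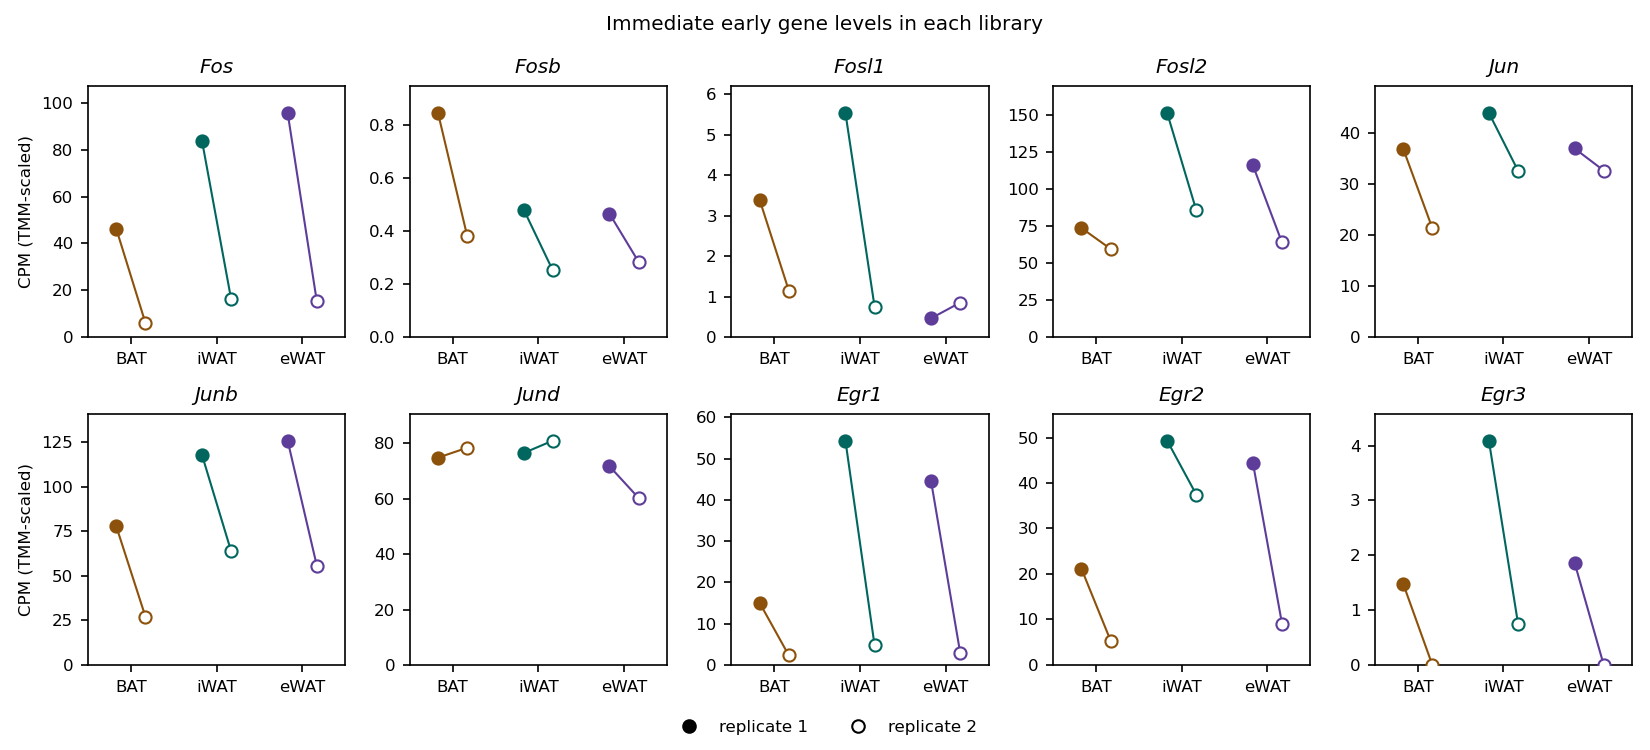
CPM of each gene (TMM-scaled, linear axes from 0, each panel with its own scale) in BAT, iWAT and eWAT cultures. Filled points are replicate 1 and open points replicate 2 of a depot, joined by a line: Fos, Junb, Egr1 and Egr2 have replicate 1 above replicate 2 in each depot, whereas the Jund points lie between 60.3 and 80.9 CPM.

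The libraries numbered 1 and 2 were compared first, within depots. Fos, Egr1, Junb and Fosl2 were higher in the replicate 1 libraries across the 3 depots, Egr1 by the largest log2 difference of the members (3.50 ± 0.25, SE), and Jund differed by 0.03 ± 0.12. Of the 8 tested members, 4 rose and 0 fell in replicate 1 relative to replicate 2, in an edgeR quasi-likelihood fit with depot and replicate number at an adjusted p below 0.05. Over all 11732 genes tested, 4.77% rose and 1.99% fell, 6.77% in all. The median log2 difference was 1.26 over the members and -0.01 over all genes.

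Within the Fos family, Fos had 46.3, 84.0 and 95.7 CPM in replicate 1 of BAT, iWAT and eWAT, against 6.12, 16.3 and 15.4 CPM in replicate 2. The groups did not overlap: the lowest replicate 1 library, BAT, lay above the highest replicate 2 library, iWAT. The log2 difference of Fos was 2.59 ± 0.16 (SE, edgeR adjusted p = 0.00135), the 4th smallest p of all genes. Fosl2, which encodes the Fos relative Fra-2, had 73.8, 151.5 and 116.2 CPM in replicate 1 of BAT, iWAT and eWAT, against 59.6, 85.7 and 64.0 CPM in replicate 2. Replicate 1 was above replicate 2 in every depot, but the BAT replicate 1 library lay below the iWAT replicate 2 library. Its log2 difference was 0.67 ± 0.14 (edgeR adjusted p = 0.0364). That call was lost when either eWAT library was left out (adjusted p = 0.194 without replicate 1, 0.189 without replicate 2) or either iWAT library (0.103 and 0.0856).

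Fosl1, which encodes Fra-1, had few counts: 16, 23 and 2 in replicate 1 of BAT, iWAT and eWAT, against 3 in each replicate 2 library. It was higher in replicate 1 of BAT and iWAT, and in eWAT both libraries were near the detection limit. Its log2 difference of 1.67 ± 0.66 did not pass (edgeR adjusted p = 0.168). Fosb had 4, 2 and 2 counts in the replicate 1 libraries and 1 in each replicate 2 library, too few to compare. The floor for an undetected gene, 3 counts, stood for 0.634 to 1.15 CPM in these libraries.

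In the Jun family the 3 genes differed in size of change. Junb had 77.8, 117.9 and 125.8 CPM in replicate 1 of BAT, iWAT and eWAT, against 27.1, 63.9 and 55.7 CPM in replicate 2, again with no overlap. Its log2 difference was 1.17 ± 0.15 (edgeR adjusted p = 0.0076). Jun had 37.0, 44.0 and 37.0 CPM against 21.4, 32.7 and 32.7 CPM in the same order, so that every replicate 1 library was above every replicate 2 library by a narrow margin. Its log2 difference of 0.45 ± 0.16 did not pass (adjusted p = 0.132, unadjusted p = 0.0245 in the edgeR fit). Jund, which many cells express steadily, had 74.8, 76.5 and 71.8 CPM in replicate 1 and 78.4, 80.9 and 60.3 CPM in replicate 2. Its adjusted p was 0.898 in that fit. The replicate 1 to replicate 2 ratios of Jund had 95% counting intervals of 0.801 to 1.14 in BAT, 0.807 to 1.11 in iWAT and 0.996 to 1.42 in eWAT. All such intervals are exact binomial ones on the counts, and they leave out any variation between cultures.

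In the Egr family, Egr1 had 15.0, 54.4 and 44.5 CPM in replicate 1 of BAT, iWAT and eWAT, against 2.29, 4.78 and 2.84 CPM in replicate 2. The groups stood far apart, with 71, 226 and 191 counts in replicate 1 and 6, 19 and 10 in replicate 2. The log2 difference of Egr1 was 3.50 ± 0.25 (edgeR adjusted p = 0.00175). The ratio was 6.54 in BAT (counting interval 2.86 to 18.4), 11.4 in iWAT (7.12 to 19.3) and 15.6 in eWAT (8.32 to 33.1).

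Egr2, also known as Krox20, had 21.1, 49.3 and 44.5 CPM in replicate 1 and 5.35, 37.5 and 9.10 CPM in replicate 2. It was 3.95-fold higher in replicate 1 of BAT (counting interval 2.25 to 7.48) and 4.89-fold higher in eWAT (3.35 to 7.35), against 1.32-fold in iWAT (1.06 to 1.64). The iWAT interval lay below the others, but with 1 library a side in each depot a difference between depots could not be tested. Over the 3 depots the log2 difference of Egr2 was 1.36 ± 0.36 and missed the threshold (edgeR adjusted p = 0.0673). Egr2 passed with no filter (edgeR adjusted p = 4.57e-05) and by DESeq2 (0.00384). Leaving out either library of a depot was nearly the same check, since the one left then says nothing about the number. The log2 difference of Egr2 was 2.16 with iWAT replicate 1 or 2 left out. It was 1.14 and 1.13 without BAT replicates 1 and 2, and 0.94 and 0.93 without eWAT replicates 1 and 2. Egr3 had 7, 17 and 8 counts in the replicate 1 libraries, against 0, 3 and 0 in replicate 2. Set against the floor of 3 counts in the library at 0, the ratio of Egr3 was 1.29 in BAT and 2.18 in eWAT. These ratios are not lower limits. The counting interval, with no upper end, began at 0.797 in BAT, so that it held 1, and at 1.40 in eWAT. In iWAT the ratio of Egr3 was 5.42 (counting interval 1.57 to 28.9). It was tested only without the filter on low counts, where its adjusted p was 0.0209 in the edgeR fit.

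**Figure D2:**
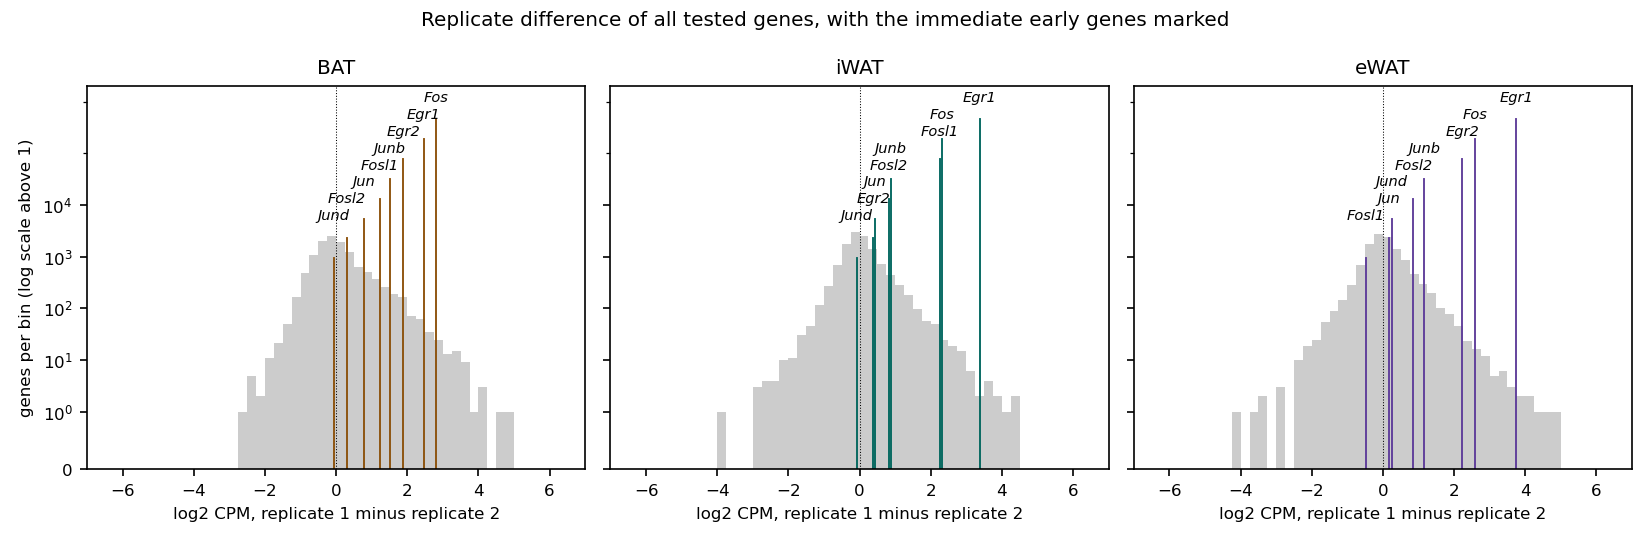
Number of genes (symmetric log axis) by log2 CPM difference of replicate 1 minus replicate 2 in each depot, over the 11732 tested genes, with a vertical line for each of the 8 tested immediate early genes. Fos and Egr1 lie in the right tail in all 3 panels, Jund lies near 0, and Fosl1 changes side in eWAT.

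A 2-fold limit was also applied within each depot, on log2 CPM. In BAT, 5 of the 8 tested members were over 2-fold higher in replicate 1 and 0 were over 2-fold lower, where 10.5% and 2.17% of all tested genes were. In iWAT the counts were 3 and 0, with 6.3% and 1.91% of all genes. In eWAT they were 4 and 0, with 6.67% and 2.98%. Fos and Egr1 passed 2-fold in all depots, as did 1.81% of all tested genes. All 3 replicate 1 libraries were above all 3 replicate 2 libraries for 4 of the 8 members (Fos, Jun, Junb and Egr1), and for 8.71% of all tested genes. The reverse held for 0 members and 8.87% of all genes. Replicate 1 was also the more deeply sequenced library in every depot, a difference that CPM scales for and whose part in the result was not tested.

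Per kilobase of counted length, the make-up of each family differed with the number. Fos held 52.7% to 68.7% of the Fos family RPKM (CPM per kilobase) in the replicate 1 libraries, against 19.1% to 36.9% in the replicate 2 libraries. Fosl2 held 29.8% to 33.9% in replicate 1 and 54.9% to 66.6% in replicate 2, so that Fos led in the first set and Fosl2 in the second. In the Jun family Junb held 52.9% to 65.2% in replicate 1 and 30.3% to 49.3% in replicate 2, and Jund 23.8% to 32.5% in replicate 1 and 34.1% to 55.9% in replicate 2. Egr1 held 39.4% to 50.0% of the Egr family in replicate 1 and 10.8% to 29.3% in replicate 2, and Egr2 held most of the rest. By mean RPKM in replicate 1, Junb (58.2 ± 14.0, SD, n = 3) was highest, followed by Fos (36.0 ± 12.3), Jund (25.8 ± 0.836) and Fosl2 (19.4 ± 6.64). Each neighbour in that order overlapped the next within 1 SD. In replicate 2 Junb (26.6 ± 10.5) and Jund (25.4 ± 3.91) led, and Fos (6.02 ± 2.69) lay below Fosl2 (11.9 ± 2.38) and Jun (9.08 ± 2.04). The counted length of Fosl1 was only 550 bases of a span of 8241, so its RPKM is the least certain.

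**Figure D3:**
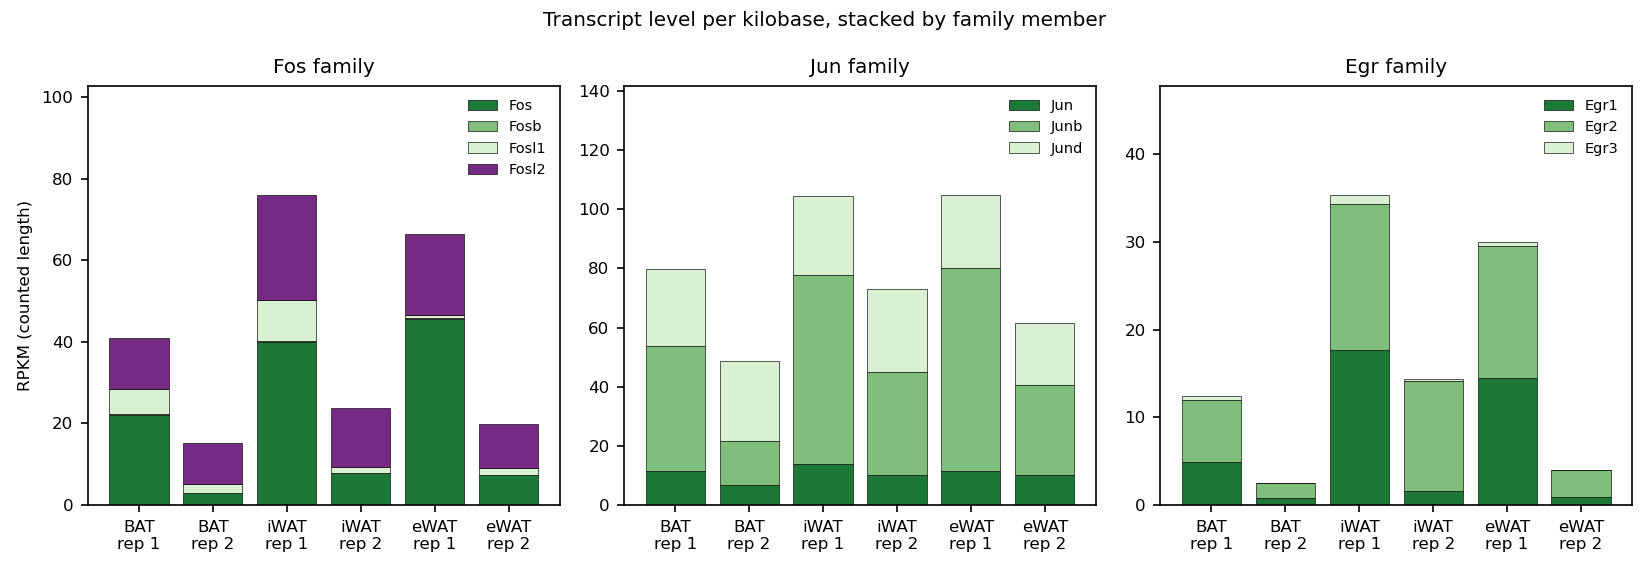
RPKM over the counted length of each gene, stacked within the Fos, Jun and Egr families, for replicates 1 and 2 of BAT, iWAT and eWAT (bars from 0, no error bars since each bar is 1 library). The Fos and Egr1 blocks are taller in every replicate 1 bar, and the Jund block is between 21.0 and 28.1 RPKM in all 6.

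Between depots, with depot as the only term, 0 of the 8 tested members were called in any contrast by the edgeR fit, in which 6.46% of all genes were called for BAT against eWAT (2.71% higher, 3.75% lower), 1.04% for BAT against iWAT (0.145% higher, 0.895% lower) and 0% for iWAT against eWAT. At an unadjusted p below 0.05 the edgeR fit held 0 members in each contrast, against 25.9%, 16.6% and 9.34% of all genes, and both DESeq2 and limma voom called 0 members as well. Both BAT libraries lay above both eWAT libraries for 2 members (Fosl1 and Jund) and below them for 0, as did 26.8% and 28.5% of all genes. For Fosl1 that order is not secure: BAT replicate 2 and eWAT replicate 2 had 3 counts each, the floor, and differed only by scaling. Both BAT libraries lay below both iWAT libraries for 2 members (Fosl2 and Egr2), as did 24.1% of all genes, and above them for 0 (23.9%). Both iWAT libraries lay above both eWAT libraries for 1 member (Jund; 19.2% of all genes) and below them for 0 (18.8%).

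Same-numbered libraries deviated together over all genes, so the fit was also made with the replicate number as a block. In that fit Fos, Junb and Egr1 fell in BAT relative to eWAT (3 of 8 lower, 0 higher), where 12.8% of all genes were called lower and 10.9% higher (23.7% in all). Fos, Fosl2, Junb, Egr1 and Egr2 fell in BAT relative to iWAT (5 of 8 lower, 0 higher), where 5.89% of all genes were called lower and 4.55% higher (10.4% in all). For iWAT against eWAT the blocked edgeR fit called 0 members and 4.8% of all genes (1.66% higher, 3.14% lower), with 2 members and 16.3% of all genes at an unadjusted p below 0.05. The contrasts share libraries, so the BAT libraries weigh in both contrasts that hold them.

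**Figure D4:**
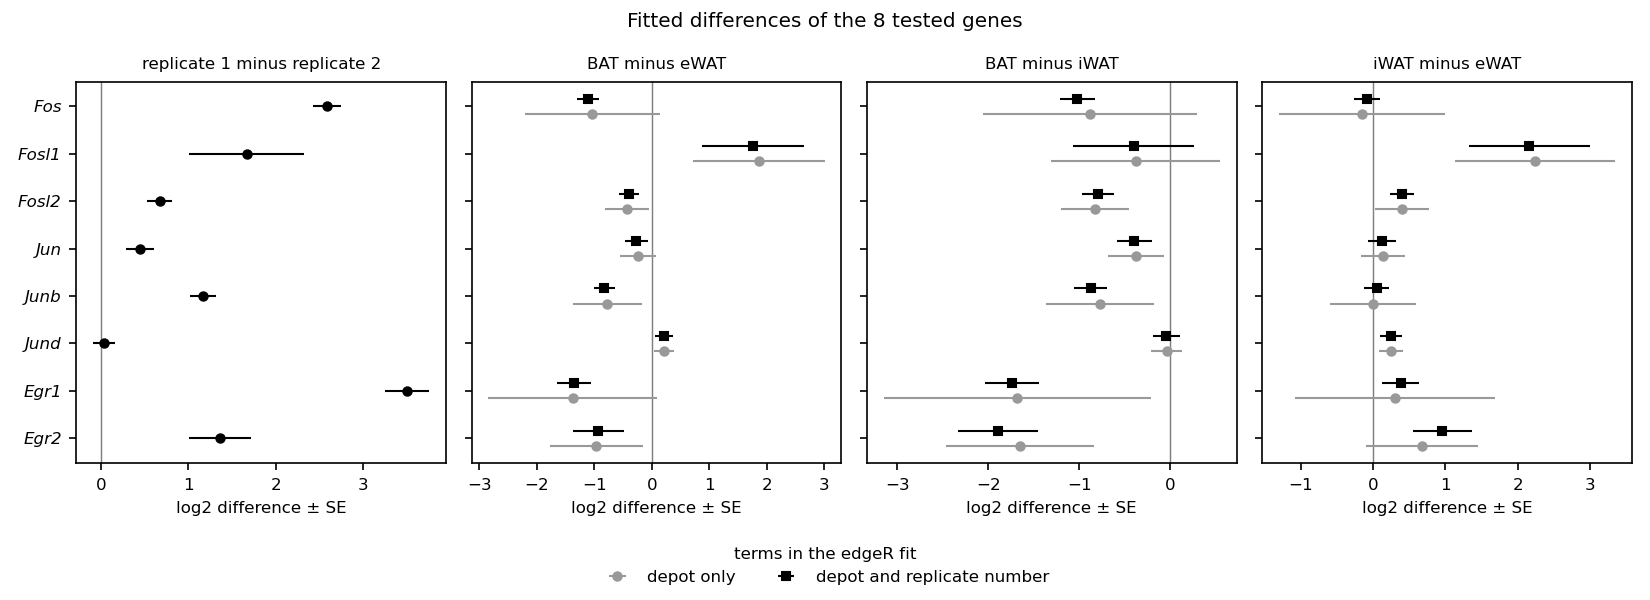
Log2 difference ± SE of the 8 tested genes in the edgeR fits, for replicate 1 minus replicate 2 (left) and for the 3 depot contrasts, with depot as the only term (grey circles) or depot and replicate number (black squares). The bars of Fos, Junb and Egr1 shorten when the number is a term.

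With the block, the log2 difference of Fos was -1.10 ± 0.19 for BAT minus eWAT (edgeR adjusted p = 0.00697) and -1.02 ± 0.19 for BAT minus iWAT (0.0211). With depot alone the same differences were -1.04 ± 1.18 and -0.88 ± 1.18, with adjusted p of 0.63 and 0.761. Among replicate 1 libraries BAT had 0.483 times the Fos CPM of eWAT (counting interval 0.408 to 0.571), and among replicate 2 libraries 0.398 times (0.213 to 0.706). Relative to iWAT the ratios were 0.551 (0.463 to 0.655) and 0.374 (0.202 to 0.655). Each same-numbered pair therefore had BAT below the white depot.

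That of Junb was -0.82 ± 0.18 relative to eWAT (blocked edgeR adjusted p = 0.0164) and -0.87 ± 0.18 relative to iWAT (0.0277). Without the block its adjusted p was 0.472 and 0.568. Egr1 differed by -1.36 ± 0.30 relative to eWAT (blocked adjusted p = 0.0171) and by -1.74 ± 0.30 relative to iWAT (0.0161), against 0.609 and 0.623 without the block. Among replicate 1 libraries BAT had 0.337 times the Egr1 CPM of eWAT (counting interval 0.253 to 0.445). Among replicate 2 libraries, with 6 and 10 counts, that ratio was 0.807 (0.241 to 2.45), an interval that holds 1. Relative to iWAT the Egr1 ratio was 0.276 (0.208 to 0.362) among replicate 1 libraries. Among replicate 2 libraries it was 0.480 (0.157 to 1.25), an interval that holds 1 as well.

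Egr2 differed between BAT and iWAT by -1.89 ± 0.44 (blocked edgeR adjusted p = 0.0389), against 0.371 without the block. The ratio was 0.429 among replicate 1 libraries (counting interval 0.334 to 0.547) and 0.143 among replicate 2 libraries (0.0763 to 0.247), where iWAT replicate 2 had 149 counts. Fosl2 differed between BAT and iWAT by -0.79 ± 0.17 (blocked adjusted p = 0.0338), against 0.338 without the block. Relative to eWAT, Fosl2 (-0.39 ± 0.18, blocked adjusted p = 0.148) and Egr2 (-0.93 ± 0.44, 0.173) did not pass. Jun differed by -0.27 ± 0.20 between BAT and eWAT and by -0.39 ± 0.20 between BAT and iWAT, and Jund by 0.21 ± 0.15 and -0.04 ± 0.15, none of which passed in the blocked fit.

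Fosl1 had summed counts of 19 in BAT, 26 in iWAT and 5 in eWAT. Its log2 difference was 1.76 ± 0.88 for BAT minus eWAT (blocked edgeR adjusted p = 0.192) and 2.16 ± 0.84 for iWAT minus eWAT (0.251). The authors' deposited table lists Fosl1 as higher in iWAT than in eWAT by 2.27 (adjusted p = 0.00511). That deposited table does not state the direction of its log2 fold changes, which was read from Ucp1, listed at 6.78 for BAT over eWAT. For BAT against eWAT the authors' deposited table gives Fos -1.12 (adjusted p = 0.000822), Junb -0.84 (0.00698), Egr1 -1.32 (0.0025) and Egr2 -0.97 (0.0114), and Fosl1, in the other direction, 1.86 (0.0474). For BAT against iWAT the authors' deposited table gives Fos -1.06 (0.00442), Fosl2 -0.83 (0.0122), Junb -0.92 (0.0118), Egr1 -1.72 (1.98e-05) and Egr2 -1.90 (3.56e-05).

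Of 41 other immediate early genes listed, 34 were tested, and 11 rose and 0 fell in replicate 1 relative to replicate 2 (median log2 difference 0.55, against -0.01 over all genes). Over all genes tested, 4.77% rose and 1.99% fell in that edgeR fit. The matricellular protein genes Cyr61 and Ctgf, targets of serum response factor and YAP, changed most. Cyr61 had 296.9, 392.1 and 301.7 CPM in replicate 1 of BAT, iWAT and eWAT, against 51.2, 49.0 and 41.0 CPM in replicate 2 (log2 difference 2.81 ± 0.14, edgeR adjusted p = 0.000628). Ctgf had 212.4, 104.6 and 111.8 CPM against 22.6, 15.1 and 22.8 CPM (2.77 ± 0.19, adjusted p = 0.00164). The antiproliferative gene Btg2 rose by 1.19 ± 0.15 (0.00822) and Errfi1, an inhibitor of epidermal growth factor receptor signalling, by 1.09 ± 0.15 (0.00971). The other 7, named after their values were seen, were Ier2, Ier3, Nr4a1, Klf6, Zfp36, Socs3 and Sgk1. The count of 11 became 5 without eWAT replicate 1, 6 without eWAT replicate 2, 17 without BAT replicate 1 and 16 without BAT replicate 2, and 17 with no filter.

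**Figure D5:**
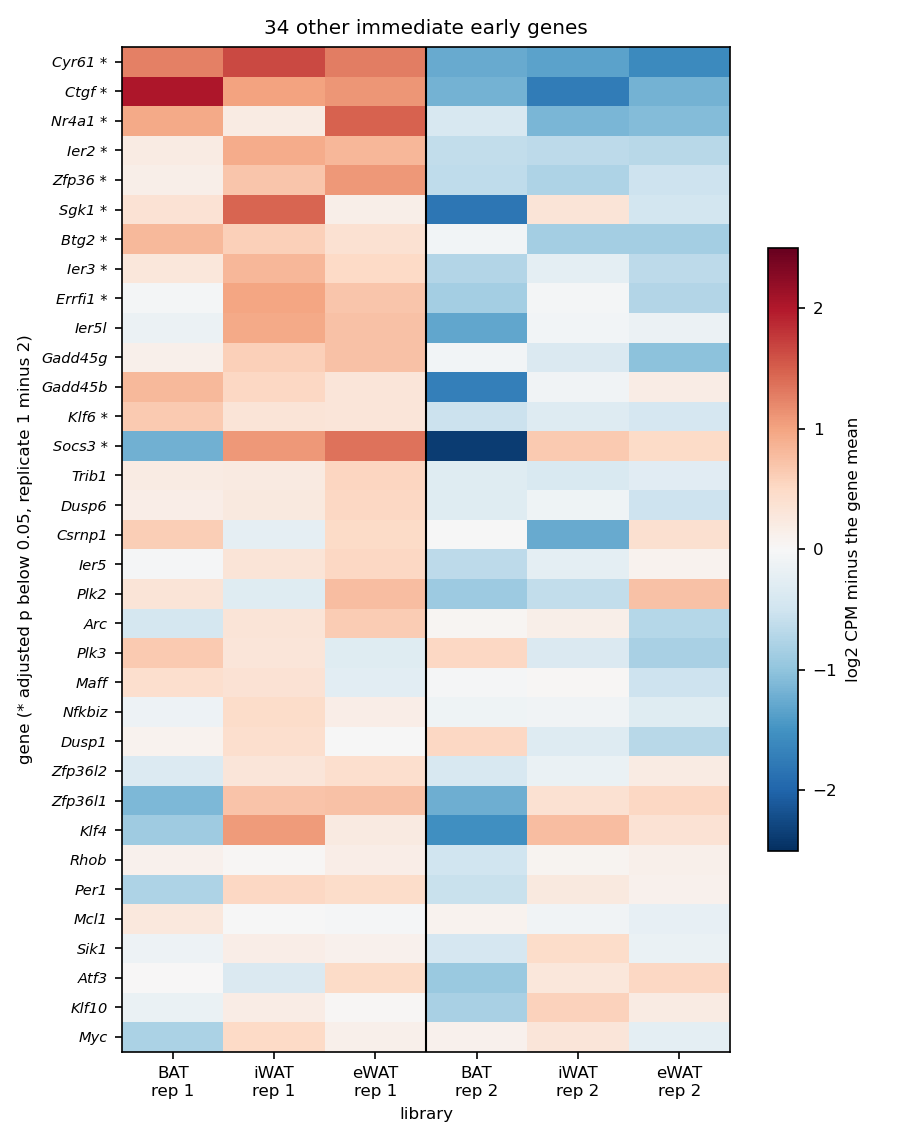
Log2 CPM minus the gene mean for 34 other tested immediate early genes, with the replicate 1 libraries left of the black line and the replicate 2 libraries right of it, sorted by the fitted difference of replicate 1 minus replicate 2. An asterisk marks the 11 genes with an adjusted p below 0.05, which lie mainly at the top, from Cyr61 down to Socs3.

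The counts for the other lists are read against the 6.77% of all genes called for the number. Of 24 upstream kinase and serum response genes, 1 rose in replicate 1, the Ets factor gene Elk3 (1.07 ± 0.17, edgeR adjusted p = 0.0148), and 0 fell (12 of 24 had a positive difference). That call was lost without eWAT replicate 1 and without eWAT replicate 2. Srf itself differed by 0.34 ± 0.14 (0.176). Of 11 tested dimer partners and corepressors, 0 were called by edgeR, DESeq2 or limma voom and 1, Nab1, was at an unadjusted p below 0.05 in edgeR (0.53 ± 0.14, adjusted p = 0.0709). Of 10 heat shock genes 0 were called by the 3 tools, with 3 at an unadjusted p below 0.05 in edgeR (median -0.01).

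Among 19 genes that have been described as AP-1 or Egr targets, 8 rose and 1 fell in replicate 1 (median 0.83). The cytokine gene Il6 had 16.1, 24.8 and 33.1 CPM in replicate 1 of BAT, iWAT and eWAT, against 2.68, 4.27 and 7.39 CPM in replicate 2. Its log2 difference was 2.38 ± 0.22 (edgeR adjusted p = 0.00386). The metalloprotease inhibitor gene Timp1 rose by 1.91 ± 0.29 (0.0135) and the hyaluronan receptor gene Cd44 by 1.52 ± 0.18 (0.00609). The one that fell, named after its value was seen, was the stromelysin gene Mmp3 (-0.75). The count of 9 was 5 without eWAT replicate 1 or without eWAT replicate 2, 6 without iWAT replicate 1 and 14 with no filter.

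Between depots, with depot as the only term, 2 of the 34 other immediate early genes fell in BAT relative to eWAT and 0 rose. Over all genes, 3.75% fell and 2.71% rose in that contrast, and whether 2 of 34 differs from that share was not tested. The 2 were Zfp36l1 (-1.82 ± 0.21, edgeR adjusted p = 0.0163), which promotes mRNA decay, and the cytokine signalling inhibitor gene Socs3 (-2.65 ± 0.47, 0.0348). Relative to iWAT, Zfp36l1 was the 1 gene of the list called (-1.75 ± 0.21, 0.0258), where 0.895% of all genes fell and 0.145% rose. With the block the counts were 2 higher and 7 lower than in eWAT, where 10.9% and 12.8% of all genes were called, and 1 higher and 5 lower than in iWAT, where 4.55% and 5.89% were. Of the partners, the leucine zipper gene Maf (-2.57 ± 0.22, 0.0103) was lower and Atf2 (0.97 ± 0.21, 0.049) higher in BAT than in eWAT. Of the listed targets, Mmp3 (-3.56 ± 0.44, 0.0203), Mmp9 (-4.11 ± 0.60, 0.0247) and Plau (-2.40 ± 0.49, 0.0425) were lower and the angiogenic factor gene Vegfa (1.36 ± 0.29, 0.0477) higher, all by edgeR with depot alone. With the block, 2 of the 19 targets rose and 10 fell in BAT relative to eWAT, in the same fit in which 23.7% of all genes were called.

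Markers of macrophages and of dividing cells moved with the replicate number, and some of those of macrophages and preadipocytes with the depot. Of 6 endothelial and 3 tested mesothelial markers, 0 were called for the number by edgeR, and of 3 tested skeletal muscle markers 1 was. The part of other cells in these results was not tested. In bulk RNA, fewer cells of a type and less RNA per cell cannot be told apart. The summed CPM of 10 macrophage markers was 441.7, 667.5 and 4884 in replicate 1 of BAT, iWAT and eWAT, against 97.1, 195.8 and 2141 in replicate 2. Lyz2 made up most of each of these sums (3633 CPM in eWAT replicate 1). Of the 10 macrophage markers, 5 rose in replicate 1 in the edgeR fit and 0 fell, where 4.77% and 1.99% of all genes did. With depot alone 6 fell in BAT relative to eWAT, where 3.75% of all genes fell. With the block 10 did, where 12.8% of all genes fell. The 4 markers of dividing cells (Mki67, Top2a, Ccnb1 and Cdk1) all rose in replicate 1, with sums of 477.2, 485.7 and 779.2 against 182.0, 248.1 and 310.6 CPM. The 7 adipocyte markers summed to 32353, 28279 and 24646 CPM in replicate 1 of BAT, iWAT and eWAT, against 42973, 26971 and 28918 in replicate 2. Fabp4 made up most of each of these sums (25312 CPM in BAT replicate 1). For 4 of the 7, all replicate 1 libraries lay below all replicate 2 libraries, as for 8.87% of all tested genes. Of the 7, 0 were called by edgeR or DESeq2 and 2 by limma voom; 5 were at an unadjusted p below 0.05 in edgeR, and 7 had a negative difference there. The 6 brown adipocyte markers, in BAT mostly Ucp1, summed to 6004 CPM in BAT replicate 1 and 11010 in BAT replicate 2. Their sums were 1432 and 1234 CPM in iWAT and 171.2 and 207.6 CPM in eWAT. Of the 6, 0 were called for the number by edgeR and 1 was at an unadjusted p below 0.05. Of 8 tested preadipocyte and fibroblast markers, 0 were called for the number by edgeR (1 at an unadjusted p below 0.05) and 1 each by DESeq2 and limma voom. With the block, 5 of the 8 fell in BAT relative to iWAT, where 5.89% of all genes fell. The adipocyte and endothelial markers were all detected in the 6 libraries, while the macrophage marker Cd163 was at 0 in BAT replicate 2.

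The profiles most like the mean of the 8 tested members over the 6 libraries were sought among 2717 other genes with at least 5 CPM on average and a log2 SD of at least 0.5. Among the 8 nearest were Fkbp14, Jazf1, Dpysl2, Itprip, Ier3, G2e3 and Arhgef25, with Pearson r from 0.995 for Fkbp14 to 0.983 for Arhgef25. These values describe 6 libraries that share depot and number, and many genes reach a high r over so few points. Ier3, itself an immediate early gene, had 28.3, 41.6 and 33.1 CPM in replicate 1 of BAT, iWAT and eWAT, against 13.8, 19.6 and 14.5 CPM in replicate 2. Fkbp14, a chaperone gene of the endoplasmic reticulum, had 103.1, 139.3 and 117.9 CPM against 45.1, 72.2 and 57.2 CPM in the same order.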

How the data were processed

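Gene-level RNA sequencing counts were analysed for 6 libraries. The authors deposited a whole-number count per gene and library with no normalization, per the file headers, and the submitters' processing notes name STAR and mm9; the counting program, the versions and any use of strand are not stated in these sources. A second table deposited by the authors holds log2 fold changes, p-values and a likelihood ratio score for each pair of depots, whose tool is not stated, and is quoted only where named.

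The tests used edgeR 4.0.16 (R 4.3.3): TMM scaling, the filterByExpr filter (11732 of 20295 genes kept) and quasi-likelihood F tests, two-sided, with Benjamini-Hochberg adjustment over all tested genes and calls below 0.05. Depots were compared with depot as the only term and, as an alternative, with the replicate number as a block. The number itself was tested in the fit with both. The numbers were taken to pair the libraries because the difference of replicate 1 minus replicate 2 correlated across genes between depots (0.45 for BAT and iWAT, 0.41 for BAT and eWAT, 0.56 for iWAT and eWAT); the labels do not state a pairing. The SE given with an edgeR log2 difference is the size of that difference divided by the square root of its F statistic. Log2 CPM used a prior count of 2. RPKM used the counted length in the deposited table. The self-check on simulated counts, DESeq2 1.42.0, limma 3.58.1, other scalings and filters and leaving out each library were also run. Figures were drawn with matplotlib 3.10.9 in Python 3.11.15. Besides the 10 members, up to 4 genes per list and comparison were named by smallest p, and 8 genes by likeness; a few genes that met these rules are not reported here. The members and lists were chosen with earlier results of these data known.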

Additional observations from a re-analysis of the deposited data

Results flagged for a closer look

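Fosl1 and Jund went the other way in eWAT than in BAT and iWAT when replicate 1 was set against replicate 2. The log2 CPM ratio of Fosl1 was -0.873 in eWAT, on 2 and 3 counts, against 1.56 in BAT and 2.87 in iWAT. That of Jund was 0.251 in eWAT, against -0.07 in BAT and -0.08 in iWAT. With 1 library a side in each depot, these differences between depots were not tested, and the eWAT counting intervals of both genes held a ratio of 1 (0.0456 to 4.77 for Fosl1 and 0.996 to 1.42 for Jund). The BAT interval of Fosl1 (0.844 to 15.8) held 1 too, as did the BAT and iWAT intervals of Jund.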

How the results depend on the processing

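For replicate 1 minus replicate 2, Fos, Egr1 and Junb passed under each of the 12 alternatives run, with log2 differences of 2.49 to 2.74, 3.25 to 3.69 and 1.02 to 1.33. Fosl2 passed under 8 of 12 and Egr2 under 6 of 12. Of these 12, 6 left out a library, and they are not separate checks. When 1 library of a depot is left out, the other says nothing about the number, so both choices gave nearly the same difference. With a library left out, from 3 to 5 members were called, and from 289 to 1582 genes in all (794 with every library); with no filter 1837 genes were called. Jund ran from -0.076 to 0.093 with a library left out.

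Depot results depended on the replicate number. With the replicate block, 2780, 1225 and 563 genes were called for BAT minus eWAT, BAT minus iWAT and iWAT minus eWAT, against 758, 122 and 0 without it, and 3, 5 and 0 members. DESeq2 called 1370, 510 and 301 genes, and no filter gave 1937, 780 and 557, with 1 member (Egr2) for BAT minus iWAT. Limma voom called 69 genes between BAT and iWAT and 1 between iWAT and eWAT; fitting only the depots compared gave 156 for BAT minus eWAT and 2 for iWAT minus eWAT. With a library left out the counts ran from 17 to 829, 0 to 94 and 0 to 3, and 0 members were called. Without a block, leaving out a library unbalances the numbers, and signs turned. Log2 differences then ran, for BAT minus eWAT, from -3.18 to 0.83 (Fos), -0.79 to 0.067 (Fosl2), -0.70 to 0.081 (Jun), -3.36 to 1.69 (Egr1) and -2.32 to 0.61 (Egr2). For BAT minus iWAT they ran from -3.03 to 0.74 (Fos), -1.43 to 1.63 (Fosl1), -3.67 to 0.94 (Egr1) and -0.077 to 0.0034 (Jund), and for iWAT minus eWAT from -1.78 to 1.71 (Fos), -0.087 to 0.89 (Fosl2), -0.11 to 0.34 (Jun), -0.52 to 0.71 (Junb), -2.33 to 3.37 (Egr1) and -0.033 to 2.25 (Egr2). Junb for iWAT minus eWAT, at -0.0011, was 0.0052 with DESeq2 size factors, 0.0071 by DESeq2, 0.043 by limma voom, 0.0050 with no filter and 0.049 with the block, and Fosl1 for BAT minus iWAT was 0.089 by limma voom. The cause was not tested. A lone library left in a depot is assumed to vary like the others. Fosb, Egr3 and Fosl1 are limited by depth.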
